A study of Mus musculus with 12 samples.

Results

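Ccr7, Tcf7, Lef1, Il7r, Klf2, S1pr1, Satb1, Cd4 and Cd28 are genes that resting T cells are known to express, and they were followed through 12 RNA-seq libraries of mouse spleen. The 9 genes were chosen by symbol, through the Ensembl identifiers of the deposited count table, and make up 9 of its 53715 entries. All 9 were present and all 9 passed the filter on low counts. The libraries fall into 3 groups of 4, and every mouse was a Yaa DKO, BXSB.Cg-Cd8atm1Mak Il15tm1Imx Yaa. These mice combine targeted alleles of Cd8a and Il15 with Yaa, the Y-linked accelerator of lupus-like disease on the BXSB strain. Replicates 1 to 4 were untreated, 6 weeks old and pre-symptomatic. Replicates 5 to 8 were untreated, 10 weeks old and symptomatic. Replicates 9 to 12 were 10 weeks old and had drunk water with 6 g/L of 2-deoxyglucose (2DG), a glucose analogue that inhibits glycolysis, without restriction. No group lacks the 3 alleles, so the values describe these genes within the model and not against healthy spleen. Gene-level counts of Cd8a and Il15 cannot tell a disrupted allele's transcript from an intact one and were not used here to check the genotype. The labels do not say that each library came from its own mouse, so the p-values measure the spread between these libraries, which may be technical.

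A naive T cell circulates between blood, spleen and lymph node until it meets its antigen. The chemokine receptor CCR7 draws it into T cell zones, the sphingosine-1-phosphate receptor S1PR1 lets it leave again, and the factor KLF2 maintains S1PR1. TCF-1 (encoded by Tcf7), LEF1 and SATB1 hold the resting gene programme, the interleukin-7 receptor keeps the cell alive, and CD4 and CD28 serve antigen recognition and costimulation. On activation, T cells are known to lower most of these genes. Several are not T cell specific: B cells also express Ccr7, Klf2, S1pr1 and Satb1, and dendritic cells express Ccr7 and Cd4. Stroma and endothelium express S1pr1 and Klf2, and natural killer and innate lymphoid cells express Tcf7, Il7r and S1pr1.

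Total counts per library ran from 15596040 to 26079979. Each gene was well covered except Cd28, which had 90 to 144 counts per library, and the lowest count of any other of the genes was 280, for Lef1. Levels are normalised counts scaled to library size (CPM), means are given ± SD over 4 libraries, log2 changes are from edgeR with their SE, and adjusted p-values come from edgeR's quasi-likelihood test with Benjamini-Hochberg adjustment over 18542 genes (threshold 0.05). Variation between libraries, as edgeR's biological coefficient of variation, was 0.127 at 6 weeks, 0.241 in untreated spleens at 10 weeks and 0.114 with 2DG. Among the untreated 10-week libraries, replicate 6 stood apart. Its Ccl21a level, a chemokine of T cell zone stroma, was 118 CPM against 7.57 to 45.4 in the other 3, and its Ms4a1 level, a B cell gene, was the lowest of that group at 450.1 CPM. Replicate 8 lay closest to the 6-week libraries: 5 of the 9 genes were within their 6-week range there, against 0 to 3 in replicates 5, 6 and 7. Calls that change without these libraries are given both ways.

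The RefSeq promoter table of GRCm38.p6 held entries for 5 of the 9 genes (Tcf7, Lef1, Il7r, Klf2 and Satb1). Each window covers 250 bases before and 50 bases after a single RefSeq start site. That site lies 300 bases from the GENCODE gene start for Il7r, 148 for Lef1 and 29 for Klf2. Tcf7, Lef1 and Satb1 have 2, 4 and 5 start sites, and a single window of each was searched. They were searched on both strands for CCACCC, a core motif of KLF factors such as KLF2, for CTTTGA of TCF/LEF factors, for GTAAACA of FOXO factors and for CCGGAAG of ETS factors. Of the 4 motifs, only the KLF motif had a match, in Lef1 and in Klf2 itself, and these promoters are shown because they hold it. The Lef1 motif starts 102 bases before the start site on the plus strand. That of Klf2 starts 19 bases before its start site and lies on the minus strand, so that it reads as the reverse complement. Capitals mark the match, 5′ to 3′ on the plus strand. No match overlaps another.
Lef1, chr3:131110073-131110372, plus strand: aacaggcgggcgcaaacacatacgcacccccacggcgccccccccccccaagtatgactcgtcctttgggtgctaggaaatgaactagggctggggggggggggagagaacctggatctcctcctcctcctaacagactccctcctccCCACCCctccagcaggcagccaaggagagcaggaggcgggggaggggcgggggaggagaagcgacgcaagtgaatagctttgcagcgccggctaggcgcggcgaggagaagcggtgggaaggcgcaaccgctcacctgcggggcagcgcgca
Klf2, chr8:72318812-72319111, plus strand: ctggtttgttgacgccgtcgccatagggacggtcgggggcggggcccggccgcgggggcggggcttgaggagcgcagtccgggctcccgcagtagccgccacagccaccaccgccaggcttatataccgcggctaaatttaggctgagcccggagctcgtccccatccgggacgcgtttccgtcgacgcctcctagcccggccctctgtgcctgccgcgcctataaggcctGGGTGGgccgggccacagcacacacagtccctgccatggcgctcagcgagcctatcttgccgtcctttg
Of 32851 promoters in the table, 31.5% held the KLF motif, 16.0% the TCF/LEF motif, 3.65% the FOXO motif and 8.86% the ETS motif. A match or its lack describes the letters of these windows and says nothing of binding.

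The transcription factors came first. Lef1 (ENSMUSG00000027985.14, chromosome 3, 131110471 to 131224356, plus strand, GRCm38) encodes a partner of beta-catenin and of TCF-1 in T cell development. Its level in replicates 1 to 4 at 6 weeks was 35.8, 34.7, 33.1 and 54.9 CPM, in untreated replicates 5 to 8 at 10 weeks 14.6, 29.1, 18.8 and 30.7 CPM, and in 2DG replicates 9 to 12 22.9, 32.8, 40.4 and 40.4 CPM. Every untreated 10-week library was below every 6-week library, and the 2DG libraries overlapped both groups. The means were 39.6 ± 10.2, 23.3 ± 7.82 and 34.1 ± 8.30 CPM (n = 4 each). The log2 change from 6 to 10 weeks was -0.76 (SE 0.27, edgeR adjusted p = 0.189) and that of 2DG against untreated at 10 weeks was 0.55 (SE 0.27, edgeR adjusted p = 0.230). Neither passed, although Lef1 had the widest age difference of the 9. An antisense gene, Gm43352, shares 1208 exon bases with Lef1 and had 4 to 10 counts per library, against 280 to 934 for Lef1. The kit does not mark strand, so reads in the shared bases cannot be assigned.

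For Satb1 (ENSMUSG00000023927.15, chromosome 17, 51736187 to 51833290, minus strand), which encodes a chromatin organiser of T cells, the levels were 188, 172, 162 and 195 CPM at 6 weeks, 84.6, 125, 119 and 159 CPM in untreated replicates 5 to 8, and 128, 155, 154 and 164 CPM with 2DG. The 4 untreated 10-week values were all below the 6-week values, the highest at 159 against 162 CPM. The means were 179 ± 14.9, 122 ± 30.3 and 150.3 ± 15.3 CPM (n = 4 each). Log2 changes were -0.56 with age (SE 0.15, edgeR adjusted p = 0.121) and 0.30 with 2DG (SE 0.15, edgeR adjusted p = 0.241), and neither passed. The 2DG value rested on single untreated libraries: it was 0.17 without replicate 5 (edgeR adjusted p = 0.437) and 0.45 without replicate 8 (edgeR adjusted p = 0.0410). Overlapping genes Gm36931 and Gm6934 share 156 and 128 of its exon bases and had 17 to 35 and 11 to 57 counts per library, against 1622 to 4247 for Satb1.

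Tcf7 (ENSMUSG00000000782.15, chromosome 11, 52252371 to 52283014, minus strand) showed no such order. Its levels were 117, 113, 114 and 180.2 CPM at 6 weeks, 101, 165, 84.1 and 128 CPM untreated at 10 weeks, and 116, 100.3, 128 and 144 CPM with 2DG. The groups overlapped throughout, and the log2 changes were -0.13 (SE 0.22, edgeR adjusted p = 0.796) and 0.03 (SE 0.22, edgeR adjusted p = 0.948).

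Klf2 (ENSMUSG00000055148.7, chromosome 8, 72319033 to 72321656, plus strand) had 114, 136, 119 and 140.1 CPM at 6 weeks, 108, 75.7, 117 and 117 CPM untreated at 10 weeks, and 117, 113, 130.1 and 133 CPM with 2DG. Replicate 6 was the low library, and the groups overlapped. Log2 changes were -0.29 (SE 0.13, edgeR adjusted p = 0.265) and 0.24 (SE 0.13, edgeR adjusted p = 0.264). Without replicate 6 they were -0.16 (SE 0.08, edgeR adjusted p = 0.337) and 0.11 (SE 0.08, edgeR adjusted p = 0.431). Replicate 6 also had the lowest summed B cell markers of the 12 libraries, at 3139 CPM, and a B cell part in its Klf2 level was not tested.

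**Figure D1:**
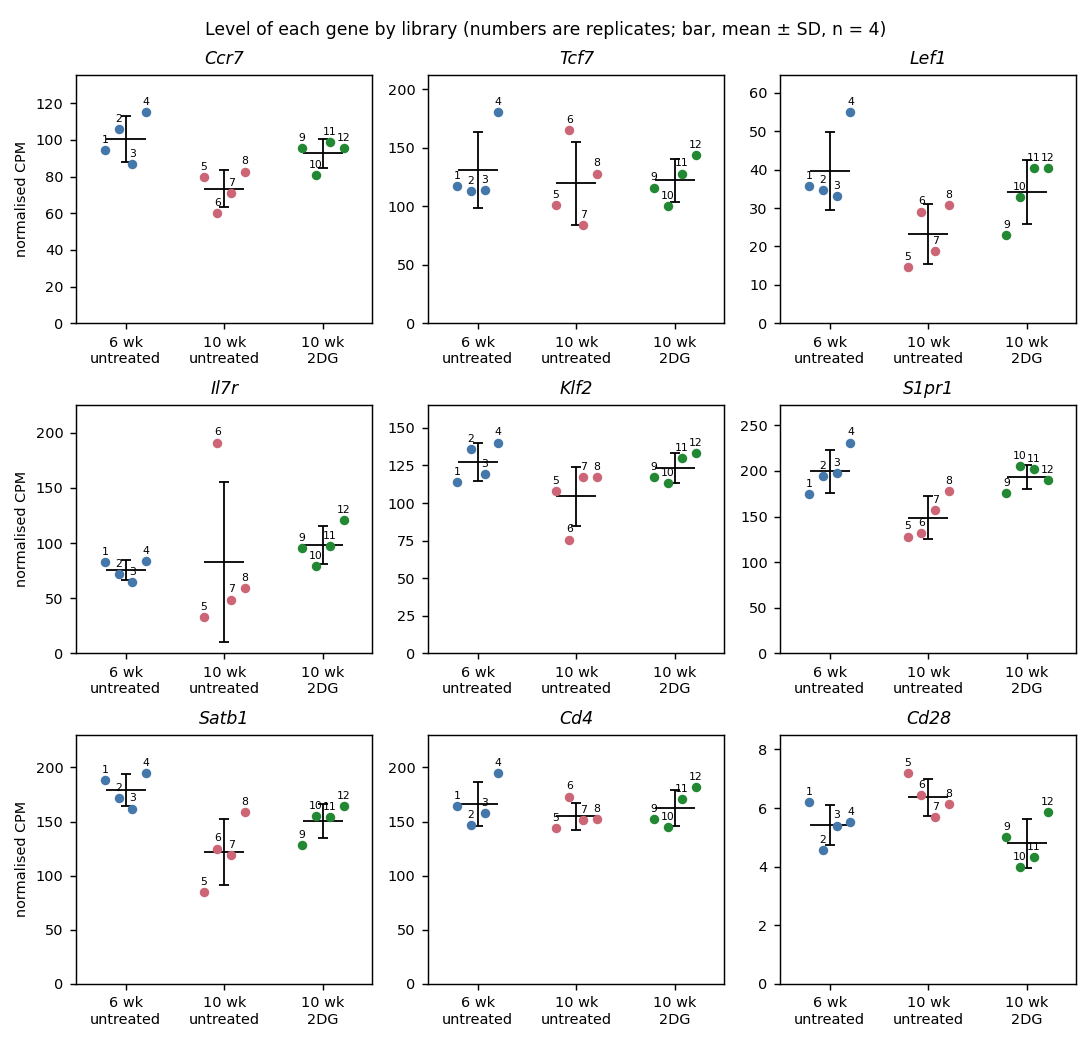
Normalised counts (CPM) of each of the 9 genes in the 12 libraries, by group, with the mean and SD of 4 libraries. Lef1, Satb1 and Ccr7 have their untreated 10-week libraries below all 6-week libraries, and Il7r has 1 untreated 10-week library at 191 CPM.

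The receptors for entry and exit came next. Ccr7 (ENSMUSG00000037944.8, chromosome 11, 99144196 to 99155077, minus strand) had 94.3, 106, 86.8 and 115 CPM at 6 weeks, 79.7, 60.2, 71.0 and 82.7 CPM untreated at 10 weeks, and 95.5, 80.8, 98.9 and 95.5 CPM with 2DG. The untreated 10-week libraries were all below the 6-week ones, and only 2DG replicate 10 fell among them. The means were 100.5 ± 12.5, 73.4 ± 10.1 and 92.7 ± 8.10 CPM (n = 4 each). Fitted log2 changes were -0.45 (SE 0.11, edgeR adjusted p = 0.104) and 0.34 (SE 0.11, edgeR adjusted p = 0.0827). The 7 dendritic cell markers, summed, ran from 295 to 357 CPM at 6 weeks and from 268 to 286 CPM untreated at 10 weeks. With 2DG the sum ran from 283 to 353 CPM. The sum too was therefore lower in every untreated 10-week library than at 6 weeks, but its members did not move alike. With age 6 of the 7 log2 changes were negative, from -0.13 for Xcr1 to -1.48 for Siglech, and none passed. Itgax went the other way, at 0.27. The part of dendritic cells in the Ccr7 level was not tested.

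S1pr1 (ENSMUSG00000045092.8, chromosome 3, 115710433 to 115715072, minus strand) had 175, 194, 198 and 231 CPM at 6 weeks, 128, 132, 157 and 178 CPM untreated at 10 weeks, and 176, 205, 202 and 189.8 CPM with 2DG. Untreated replicates 5, 6 and 7 were below every 6-week and every 2DG library, and replicate 8, at 178 CPM, was inside both ranges. The means were 199.7 ± 23.1, 149 ± 23.3 and 194 ± 13.3 CPM (n = 4 each). The log2 changes were -0.42 (SE 0.11, edgeR adjusted p = 0.111) and 0.38 (SE 0.11, edgeR adjusted p = 0.0530), the latter the smallest adjusted p of the 9 genes in any comparison. Both Ccr7 and S1pr1 are also B cell genes. The 10 B cell markers, summed, ran from 5107 to 6078 CPM at 6 weeks, from 3139 to 6238 CPM untreated at 10 weeks and from 5315 to 5862 CPM with 2DG. For S1pr1, stroma and endothelium are a further source. Their 7 markers, summed, ran from 586 to 697 CPM, from 561 to 624 CPM and from 548 to 649.6 CPM in the same order. The part of either marker set in the receptor levels was not tested.

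Il7r (ENSMUSG00000003882.5, chromosome 15, 9505788 to 9530176, minus strand) encodes the alpha chain of the interleukin-7 receptor. Its levels were 82.6, 71.7, 64.6 and 83.8 CPM at 6 weeks, 33.1, 191, 48.8 and 59.0 CPM untreated at 10 weeks, and 95.8, 79.3, 97.2 and 121 CPM with 2DG. Replicate 6 held the highest value of all 12 libraries, while replicates 5, 7 and 8 held the 3 lowest. The means were 75.7 ± 9.17, 83.0 ± 72.9 and 98.3 ± 17.0 CPM (n = 4 each). Fitted log2 changes were 0.13 (SE 0.46, edgeR adjusted p = 0.914) and 0.24 (SE 0.46, edgeR adjusted p = 0.804). Without replicate 6 they were -0.68 (edgeR adjusted p = 0.145) and 1.06 (SE 0.19, edgeR adjusted p = 0.00991), where 3.65% of all genes were called higher. The increase with 2DG therefore passed only in fits that leave that library out. In replicate 6 Il7, the cytokine of this receptor, was also high, at 19.7 CPM against 5.79 to 8.78 CPM in the other untreated 10-week libraries, and Id2, an innate lymphoid and effector gene, was at 166 CPM. The 5 natural killer and innate lymphoid markers, summed, were at 22.9 CPM there and at 17.6 to 27.6 CPM in the others. Their part was not tested.

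Cd4 (ENSMUSG00000023274.14, chromosome 6, 124864692 to 124888221, minus strand), the coreceptor of helper T cells, had 164, 147, 158 and 195 CPM at 6 weeks, 144, 173, 151 and 152 CPM untreated at 10 weeks, and 152, 145, 171 and 182 CPM with 2DG. The groups overlapped, and the log2 changes were -0.10 (SE 0.10, edgeR adjusted p = 0.642) and 0.07 (SE 0.10, edgeR adjusted p = 0.723). Cd28 (ENSMUSG00000026012.2, chromosome 1, 60716800 to 60773359, plus strand), the costimulatory receptor, ran the other way. Its levels were 6.20, 4.55, 5.40 and 5.52 CPM at 6 weeks, 7.20, 6.43, 5.69 and 6.14 CPM untreated at 10 weeks, and 5.01, 3.98, 4.33 and 5.85 CPM with 2DG. Untreated replicate 7 and 2DG replicate 12 were the libraries in which the 10-week groups crossed. The log2 changes were 0.23 (SE 0.14, edgeR adjusted p = 0.438) and -0.41 (SE 0.14, edgeR adjusted p = 0.0993).

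Per kilobase of merged exon length, the genes ordered from Klf2 at 64.0 CPM per kb through S1pr1 at 59.3, Tcf7 at 47.3, Ccr7 at 44.9, Cd4 at 39.9, Il7r at 18.4, Satb1 at 7.91 and Lef1 at 3.68 to Cd28 at 0.903 CPM per kb, as means over 12 libraries. Ranges over the libraries overlapped for every pair of neighbours in that order except Lef1 and Cd28. Merging the exons of all transcripts makes Lef1 and Satb1 long (8788 and 19027 bases), which lowers their values on this scale.

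Set side by side, no gene of the 9 passed the adjusted threshold in any of the 3 comparisons. With age, 0.00539% of all tested genes passed, which is 1 gene, so the comparison called almost nothing anywhere. For 2DG against untreated at 10 weeks 7.42% passed (401 genes higher and 975 lower), and for 2DG at 10 weeks against 6 weeks 0.129%. At an unadjusted edgeR p under 0.05 there were 5 of the 9 lower with age, where 7.88% of all genes were, and 0 higher, where 9.26% were. With 2DG there were 2 higher, where 11.7% of genes were, and 1 lower, where 12.8% were, and for 2DG at 10 weeks against 6 weeks 0, where 16.9% of genes were. Untreated 10-week and 6-week libraries did not overlap for 3 genes, all lower with age, against 3.33% of all genes. The 10-week groups overlapped for all 9 genes, although 4.48% of all genes had every 2DG library higher and 7.91% every one lower. For 2DG at 10 weeks against 6 weeks, 15.7% of genes did not overlap, and 0 of the 9.

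**Figure D2:**
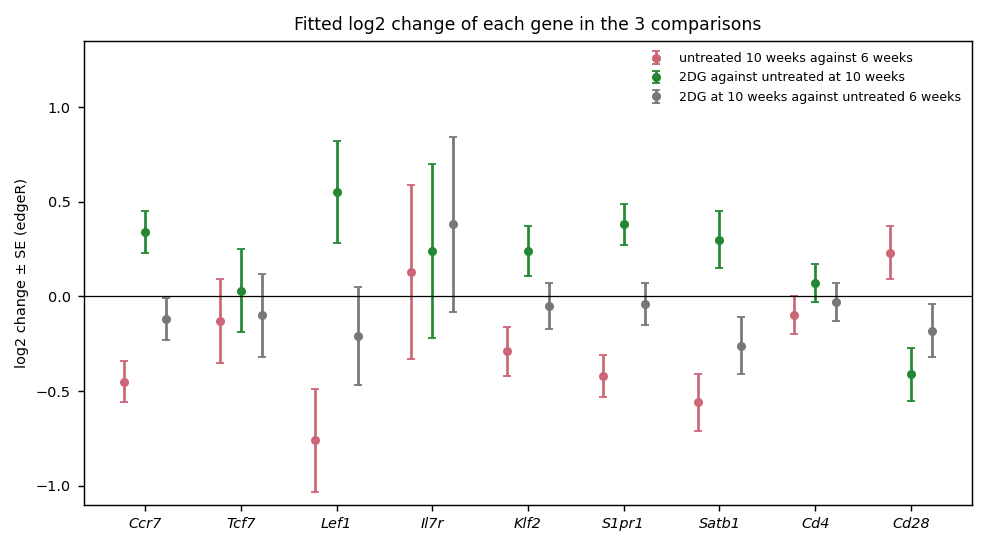
Fitted log2 change of each gene with its SE in the 3 comparisons (edgeR). With age, 7 values are below 0, and with 2DG at 10 weeks 8 are above 0; the grey values, 2DG at 10 weeks against 6 weeks, run from -0.26 to 0.38.

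The log2 change with age was negative for 7 of the 9, with a median of -0.29, against 48.5% of all tested genes and a median of 0.007. With 2DG it was positive for 8 of the 9, with a median of 0.24, against 51.8% of genes and a median of 0.010. These comparisons share the untreated 10-week libraries, so opposite signs in them follow in part from the same 4 values. The third comparison, which uses none of them as a group, had 8 negative values among the 9 (50.5% of all genes), with a median of -0.10 and a range from -0.26 (SE 0.15) for Satb1 to 0.38 (SE 0.46) for Il7r, with edgeR adjusted p from 0.427 to 0.917. Age and treatment differ together in it. Its SEs and adjusted p-values still draw on the untreated 10-week libraries, because all 12 libraries were fitted with a shared spread. Fitted on only the 2 compared groups, it called 1367 genes and 0 of the 9.

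Library by library, untreated replicate 5 had 8 of the 9 genes below the 6-week range, among them Lef1 at -1.44, Il7r at -1.19 and Satb1 at -1.08 on the log2 scale against the 6-week mean, and Cd28 above it, at 0.41. Replicate 7 had 6 below, with Lef1 at -1.08. Replicate 6 had 5 below and 2 above, with Ccr7 at -0.74 and Il7r at 1.34. Replicate 8 had 4 below and 5 within. The 2DG libraries were not uniform either: replicate 10 had 7 genes below the 6-week range, replicates 9 and 11 had 2 each and replicate 12 had 0. In replicate 10 the summed erythroid markers were also the highest of the 12 libraries, at 8564 CPM. Whether that moves with its lower values was not tested.

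**Figure D3:**
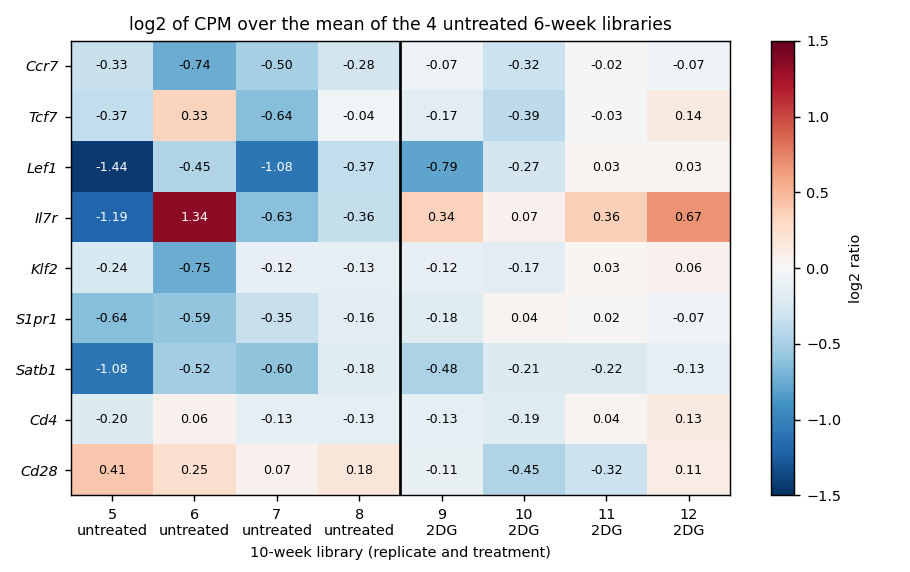
Log2 ratio of each 10-week library's CPM to the mean of the 4 untreated 6-week libraries, by gene; blue is lower and red higher. Replicate 5 is the bluest column, and replicate 6 combines the highest Il7r, at 1.34, with the lowest Ccr7, at -0.74.

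Without untreated replicate 8, edgeR called 3 of the 9 genes lower with age: Ccr7 at -0.51 (adjusted p = 0.0228), S1pr1 at -0.52 (adjusted p = 0.0115) and Satb1 at -0.71 (adjusted p = 0.00944), where 3.76% of all genes were called lower. For 2DG, the same 3 were called higher, at 0.39 (adjusted p = 0.0496), 0.47 (adjusted p = 0.0103) and 0.45 (adjusted p = 0.0410), where 4.05% of genes were. With replicates 6 and 8 both left out, 5 were called lower with age, where 5.60% of genes were: Ccr7, Lef1 at -1.23 (edgeR adjusted p = 0.0326), Il7r at -0.88 (edgeR adjusted p = 0.0237), S1pr1 and Satb1. With 2DG 4 were called higher, where 7.40% of genes were: Lef1 at 1.02 (edgeR adjusted p = 0.0469), Il7r at 1.25 (edgeR adjusted p = 0.00329), S1pr1 and Satb1. Leaving out the library nearest to 6 weeks widens the age difference by construction, so these fits say how much rests on single libraries and are no separate evidence. DESeq2 on all libraries called Ccr7 (adjusted p = 0.0168), S1pr1 (adjusted p = 0.0222) and Satb1 (adjusted p = 0.0211) lower with age, where it called 1.17% of genes lower, and S1pr1 higher with 2DG (adjusted p = 0.0242), where it called 4.27% higher. S1pr1 with 2DG also passed without 6-week replicate 4 (edgeR adjusted p = 0.0490), where 1185 of all genes were called in either direction. Over the 20 alternatives and the fit itself, adjusted p with age ran from 0.0168 to 0.310 for Ccr7, from 0.0326 to 0.422 for Lef1, from 0.0237 to 0.976 for Il7r, from 0.0115 to 0.325 for S1pr1 and from 0.00657 to 0.331 for Satb1. With 2DG it ran from 0.0496 to 0.200 for Ccr7, from 0.0469 to 0.460 for Lef1, from 0.00329 to 0.989 for Il7r, from 0.0103 to 0.149 for S1pr1 and from 0.0176 to 0.460 for Satb1. Tcf7, Klf2, Cd4 and Cd28 were not called under any of the 20 alternatives in any comparison.

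**Figure D4:**
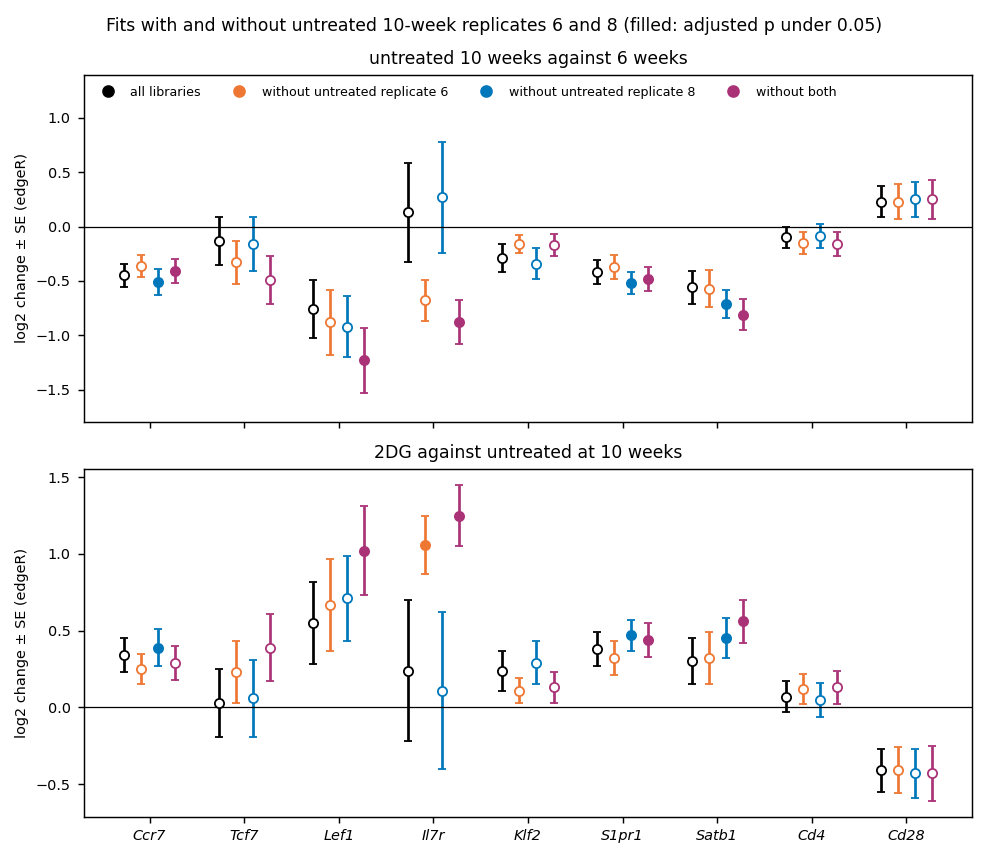
Fitted log2 change with SE (edgeR) for each gene with all libraries, without untreated 10-week replicate 6, without replicate 8 and without both, for age and for 2DG at 10 weeks; filled points have an adjusted p under 0.05. Il7r moves most, from 0.13 to -0.88 with age and from 0.24 to 1.25 with 2DG.

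In whole spleen, fewer cells of a type and less RNA per cell cannot be told apart. Summed Cd3e, Cd3d and Cd3g, the invariant CD3 chains of every T cell, were therefore used as a within-library reference. Their level was 151, 127, 135 and 173 CPM at 6 weeks, 168, 183, 134 and 141 CPM untreated at 10 weeks, and 125, 113, 147 and 162 CPM with 2DG. The groups overlapped, and the log2 differences were 0.10 with age (exact permutation p = 0.571) and -0.20 with 2DG (exact permutation p = 0.257). The mean CD3 level was 146 ± 20.2 CPM at 6 weeks and 157 ± 22.7 CPM untreated at 10 weeks (n = 4 each). B cells also express Ccr7, Klf2, S1pr1 and Satb1, so a ratio of these genes to CD3 can also move with B cell RNA. All 10 B cell markers were negative with age (median log2 change -0.35) and positive with 2DG (median 0.22), and none passed. Their part in the ratios was not tested.

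Relative to CD3, Lef1 was 0.238, 0.274, 0.245 and 0.318 at 6 weeks, 0.0871, 0.159, 0.140 and 0.217 untreated at 10 weeks, and 0.183, 0.290, 0.276 and 0.249 with 2DG. Ccr7 was 0.626, 0.834, 0.642 and 0.667, then 0.475, 0.329, 0.529 and 0.584, then 0.764, 0.716, 0.675 and 0.588. Satb1 was 1.25, 1.36, 1.20 and 1.13, then 0.505, 0.685, 0.884 and 1.12, then 1.03, 1.37, 1.05 and 1.01. For these 3 genes every untreated 10-week ratio was below every 6-week ratio, which was so for 1.91% of all genes. The log2 differences were -0.90 for Lef1, -0.55 for Ccr7 and -0.69 for Satb1, each with a two-sided exact permutation p = 0.0286, the smallest that 4 against 4 allows, and 0.154 after Benjamini-Hochberg adjustment over 27 tests. With 2DG the Ccr7 ratio was higher in every library (log2 difference 0.54, exact permutation p = 0.0286, adjusted 0.154), which was so for 4.52% of genes.

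The Il7r ratio was 0.548, 0.566, 0.478 and 0.486 at 6 weeks and 0.766, 0.703, 0.663 and 0.744 with 2DG, so all 4 treated libraries were above all 6-week ones, as for 2.53% of genes. The log2 difference was 0.47 (exact permutation p = 0.0286, adjusted 0.154). Untreated 10-week ratios, 0.197, 1.05, 0.364 and 0.417, lay on both sides. For Cd4 the ratio was 1.09, 1.16, 1.17 and 1.13 at 6 weeks, 0.858, 0.944, 1.13 and 1.07 untreated at 10 weeks and 1.21, 1.28, 1.17 and 1.12 with 2DG. None of the 27 ratio tests passed after adjustment. With the 16 T lineage genes as the reference instead, Ccr7 and Lef1 still did not overlap between the untreated ages, while Satb1 did, and so did Ccr7 between the 10-week groups.

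**Figure D5:**
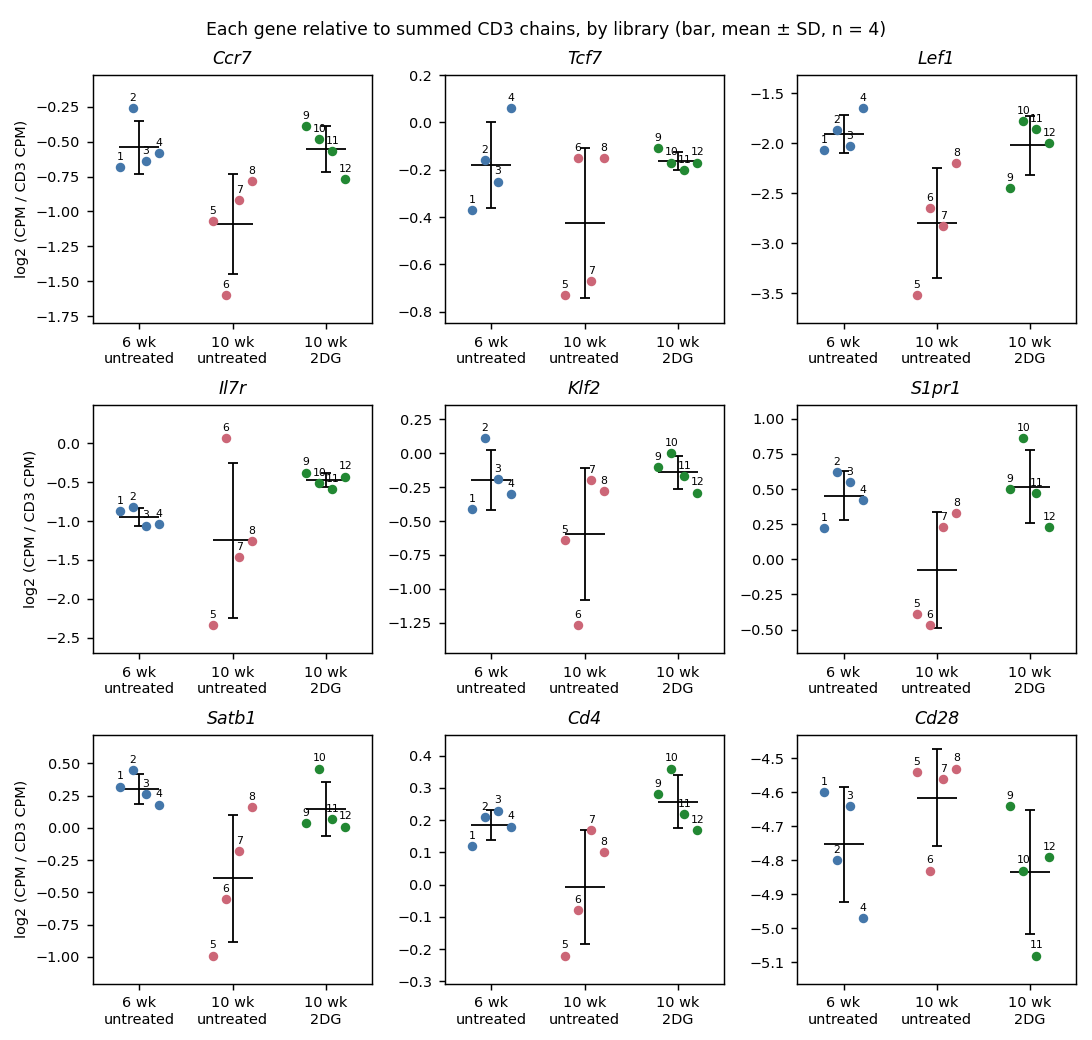
Log2 ratio of each gene's CPM to the summed CPM of Cd3e, Cd3d and Cd3g in each library, by group. The untreated 10-week ratios of Lef1, Ccr7 and Satb1 lie below all 6-week ratios, and the 2DG ratios of Il7r lie above them.

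A wider list of 19 other genes high in naive or resting T cells gave the setting. With age none passed, 16 of the 19 log2 changes were negative and the median was -0.22; the smallest p belonged to Foxp1, a factor of T cell quiescence, at 260.5 ± 52.3 against 345 ± 37.2 CPM (log2 change -0.40, edgeR adjusted p = 0.137). With 2DG 13 of 19 were positive, with a median of 0.19, and 1 passed, where 7.42% of all genes did. Btg1, an antiproliferative gene of resting lymphocytes, was at 447 ± 31.2 CPM with 2DG and 363 ± 42.9 CPM without (log2 change 0.30, edgeR adjusted p = 0.0460). Its call was lost in 12 of 20 alternatives, with adjusted p up to 0.120. At least 8 of the 19 are also high in B cells.

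The 20 partners of these genes (ligands, enzymes, coreceptors and signalling molecules) came next. With age none passed and the median was 0.05. With 2DG 3 fell, where 5.26% of all genes were called lower, and 2 of the 3 are relatives of Cd28. Icos, an inducible costimulator, was at 3.89 ± 0.548 CPM with 2DG and 8.79 ± 1.69 CPM without (log2 change -1.17, edgeR adjusted p = 0.00210). Ctla4, the inhibitory receptor for the same ligands as CD28, was at 1.66 ± 0.378 and 3.52 ± 0.662 CPM (log2 change -1.08, edgeR adjusted p = 0.0135), and lost its call without 2DG replicate 10 or 11 (adjusted p up to 0.0542). Jak3, the kinase of the common gamma chain that pairs with IL7R, was at 86.7 ± 9.88 and 127 ± 16.8 CPM (log2 change -0.55, edgeR adjusted p = 0.00981). At 6 weeks Icos was at 4.65 ± 0.693, Ctla4 at 1.81 ± 0.493 and Jak3 at 104 ± 9.81 CPM, and the differences from these to the untreated 10-week levels did not pass (edgeR adjusted p = 0.0815, 0.0972 and 0.204). The ligands Il7 and Ccl21a did not pass with 2DG (edgeR adjusted p = 0.926 and 0.775).

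Of 18 genes raised in activated, effector or memory T cells, none passed with age, although 17 log2 changes were positive with a median of 0.68. With 2DG 12 fell, where 5.26% of all genes were called lower, and the median was -0.86. Among the 12 were Tigit (log2 change -1.97, edgeR adjusted p = 0.00372) and Eomes (log2 change -1.45, edgeR adjusted p = 0.0100). Icos and Ctla4, already counted among the partners, were also among them. The number that fell was 6 without 2DG replicate 10 and 5 without replicate 11. In these fits 515 and 514 of all genes were called in either direction, against 1376 with all libraries. Summed over the 18 genes, the level was 732 to 963 CPM at 6 weeks and 883 to 1295 CPM untreated at 10 weeks. With 2DG it was 735 to 851 CPM, so the 10-week groups did not overlap. Of single genes, 7.91% had every 2DG library below every untreated 10-week library. None of the 16 T lineage genes passed in any comparison, with medians of 0.04, -0.04 and -0.06.

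Other cell types moved beside these genes, and their part was not tested. All 6 plasma cell markers fell with 2DG (median -1.46), where 5.26% of all genes were called lower. Their summed level was 2111 to 3953 CPM at 6 weeks and 3594 to 6551 CPM untreated at 10 weeks. With 2DG it was 1608 to 2507 CPM. No B cell marker of 10 passed in any comparison, with 10 of 10 negative with age (median -0.35) and 10 of 10 positive with 2DG (median 0.22). Of 7 dendritic cell markers, 3 rose with 2DG (Clec9a, Cd209a and Zbtb46), where 2.16% of all genes were called higher. Of the 7 log2 changes 5 were positive and 2 negative (median 0.45), with Itgax at -0.49 (edgeR adjusted p = 0.0535). Of 8 macrophage markers 1 fell (C1qa, log2 change -0.88, edgeR adjusted p = 0.0374), with 3 changes positive and 5 negative. Of 20 alternatives, these calls were lost in 1 for Clec9a, 4 for Cd209a, 11 for Zbtb46 and 11 for C1qa. None of the 5 erythroid markers passed in any comparison, but all 5 log2 changes were positive with age (median 0.17), with 2DG (median 1.06) and for 2DG at 10 weeks against 6 weeks (median 1.24). Their summed level was 2179 to 3397 CPM at 6 weeks and 679 to 6442 CPM untreated at 10 weeks. With 2DG it was 4036 to 8564 CPM, each library above every 6-week library, as for 7.98% of single genes. No stromal or natural killer and innate lymphoid marker passed, with medians of -0.07, 0.05 and -0.02 for stroma and of -0.28, 0.04 and -0.24 for the latter in the same order of comparisons. None of the marker genes was at 0 in any group.

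Over the 12 libraries, each gene's pattern was set beside those of 11289 other genes by Pearson's r of log2 CPM; the points share library, cell make-up and depth, and no test was made. Nearest to Lef1 were Nisch (0.966), H3f3aos (0.963) and Itm2a (0.961), and to Satb1 Fam160a2 (0.957), H3f3aos (0.937) and St8sia1 (0.929). For Tcf7 they were Rab11fip2 (0.961), Sigirr (0.930) and Bcl2 (0.921), and for Klf2 Fcer2a (0.944), Prkd2 (0.943) and Ehd2 (0.940), of which Fcer2a encodes the B cell receptor CD23. Ccr7 lay nearest to Lsp1 (0.954), Zfp69 (0.930) and Nacad (0.921), and S1pr1 to Pisd-ps1 (0.974), Dhrs3 (0.958) and Rfx1 (0.957). The genes nearest to Il7r were Slc7a2 (0.975), Bbs4 (0.968) and Cyp1b1 (0.967), with Cyp1b1 at 204 CPM in replicate 6. Cd4 lay nearest to Lrsam1 (0.895), Rinl (0.887) and Abtb2 (0.872), and Cd28 to Jak3 (0.942), Zap70 (0.938) and Tspan5 (0.932). Among the 9 themselves the closest pair was Lef1 and Satb1 (0.914), and Cd28 was closest to Tcf7, at 0.164. H3f3aos is an antisense transcript and Pisd-ps1 a pseudogene, so their counts may hold reads of their partners.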

How the data were processed

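Poly(A) RNA from spleen was sequenced from TruSeq RNA v2 libraries, an unstranded kit according to the labels. Whole-number counts per gene were deposited by the authors. The submitters' processing notes list Bowtie2 2.2.0, RSEM 1.2.12 and GRCm38, and the rounding of the counts is not given there. Identifiers were joined to GENCODE M21 (53620 of 53715 matched). Counts were fitted with edgeR 4.0.16 (TMM, filterByExpr, robust glmQLFit and glmQLFTest, all 12 libraries, limma 3.58.1 for voom) in R 4.3.3. The fit was checked on simulated counts with the same spread in every group, so not under the unequal spread of these groups. It recovered 38 of 67 genes changed 1.5-fold in the simulated 2DG group, 59 of 67 changed 2-fold and 64 of 66 changed 4-fold. There were 7 false calls. Pairs of libraries differed beyond sampling noise (chi-square per gene 10.5 to 85.2). CD3 ratios were tested by two-sided exact permutation (scipy 1.17.1). Alternatives were DESeq2 1.42.0, other size factors, filters and group choices, removal of immunoglobulin genes, voom quality weights, and left-out libraries. The 9 genes, 11 lists and tests were chosen with earlier results of these data known. Named beside the 9 genes were list members past the threshold (up to 4 a list, or the smallest p) where a result is read beside them, the 3 most alike genes, and a few genes chosen after their values were seen (Il7, Ccl21a, Ms4a1 and Id2). Some genes that this rule names are left out of the text.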

Additional observations from a re-analysis of the deposited data

Results flagged for a closer look

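In 5 of 57 groups of 4 libraries checked, the highest or lowest library lay far from the other 3 by Dixon's criterion; chance flags about 1 group in 20. At 6 weeks replicate 4 was high for Tcf7, at 180.2 CPM against 113 to 117 CPM, and for Lef1, at 54.9 CPM against 33.1 to 35.8 CPM. In untreated spleens at 10 weeks replicate 6 was high for Il7r, at 191 CPM against 33.1 to 59.0 CPM. In the same library the Cd28 ratio to CD3 was low, at 0.0352 against 0.0424 to 0.0434. With 2DG, replicate 10 was high for the Satb1 ratio to CD3, at 1.37 against 1.01 to 1.05. No cause of these values was tested.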

How the results depend on the processing

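The number of genes called with age was 1, and it was 102 without the low-count filter, 0 with only the compared groups, 682 with DESeq2 and 2303 without untreated replicates 6 and 8; leaving out 1 library gave 0 to 1563, the highest without replicate 8. For 2DG at 10 weeks it was 1376, and 581, 2304 and 3193 with only the compared groups, DESeq2 and without replicates 6 and 8, and 514 to 2209 with 1 library left out. For 2DG against 6 weeks it was 24, and 98 without the filter, 1367 with only the compared groups, 1644 with voom quality weights, 902 with DESeq2, 758 without replicates 6 and 8, and 1 to 354 with 1 library left out. Of the 9 genes, DESeq2 called 3 with age and 1 with 2DG, leaving out replicates 6 and 8 gave 5 and 4, and leaving out 1 library gave 0 to 3 in each. The cause of these shifts was not tested.

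Il7r with age turned to -0.41 with voom quality weights and to -0.88 without replicates 6 and 8, and the Tcf7 to CD3 ratio for 2DG against 6 weeks turned to -0.02 with the T lineage reference. With 1 library left out, log2 changes spanned 0 for Tcf7 (-0.33 to 0.06) and Il7r (-0.68 to 0.40) with age, for Tcf7 (-0.11 to 0.23) and Il7r (-0.02 to 1.06) with 2DG, and for Tcf7 (-0.19 to 0.09), Klf2 (-0.10 to 0.00), S1pr1 (-0.10 to 0.03) and Cd4 (-0.09 to 0.06) for 2DG against 6 weeks. No paired analysis was possible because the replicate numbers run on from 1 to 12 across the groups. Cd28 had the fewest counts, 90 to 144 per library, while Il7r had the widest SE, at 0.46.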
